A study of Rattus norvegicus with 60 samples.

Results

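The change of the ischemia-reperfusion (IR) effect on retinal miRs over the first 2 h of reperfusion was measured as a difference of differences, the IR minus sham control difference at 2 h minus the same difference at 0 h. The samples were the 24 arrays of 4 groups, of 60 arrays in the whole series, with 6 arrays in each group, and all 350 rat miRs on the array were considered. All groups were whole retinas of male Long Evan’s hooded rats of 250 to 300 g, with no age given. In the IR groups, 1 eye was cannulated and held at an intraocular pressure of 110 mmHg for 60 min, and retinas were collected 0 h or 2 h after the pressure was released. The sham control groups at 0 h and 2 h went through the same anesthesia, eye drops and surgery without the raised pressure. The RNA is therefore a mixture of all retinal cell types, in which fewer cells of a type and less RNA per cell cannot be told apart. The 6 arrays of a group came from 6 rats, so the p-values measure the spread between rats together with that between arrays.

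MiRs are short RNAs cut from hairpin precursors, and they repress messenger RNAs that pair with the seed, bases 2 to 8 of the miR. Each hairpin has a 5′ and a 3′ arm, of which one is usually kept as the guide strand while the other, the passenger or star strand, is mostly degraded. The retina is rich in the neuronal miR-124 and miR-9 and in the photoreceptor cluster of miR-183, miR-96 and miR-182. Raised intraocular pressure stops retinal blood flow, and the release of the pressure starts the reperfusion whose first hours were sampled here.

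A total of 159 miRs were tested, those detected on all 6 arrays of at least 1 of the 10 groups of the series. Signals are given below on a log2 scale after each array was scaled to a common level, and a miR was called at a difference of at least 2-fold with an adjusted p of at most 0.05 in limma. Every slide held 1 treatment among these 24 arrays, so within them IR and slide cannot be told apart in the effect at a single time. Each of the 6 slides held both times, and the change of the IR effect could therefore be fitted with the slide as a block. Only 1 miR was called for the change of the IR effect, rno-miR-125a-3p, which is 0.629% of the miRs tested. Its hairpin also gives miR-125a-5p, the guide strand, and miR-125b* is the 3′ arm of a related hairpin. The mature sequences of these 3 miRs, and of the other miRs among the 10 with the lowest p that could be matched, are shown because the results below turn on them. They come from RefSeq (assembly GRCr8), with the seed in capitals.
miR-125a-3p: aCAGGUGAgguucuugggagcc
miR-125a-5p: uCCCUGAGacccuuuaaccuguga
miR-125b*: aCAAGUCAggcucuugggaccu
miR-207: cUUCUCCUggcucuccucccuuu
let-7d*: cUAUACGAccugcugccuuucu
miR-346: uGUCUGCCugagugccugccucu
miR-378*: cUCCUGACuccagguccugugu
miR-192: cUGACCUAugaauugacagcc

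The other 4 of the 10 were miR-347, miR-328, miR-497 and miR-138. The 6 miRs of the 10 with a sequence had 6 different seeds. MiR-125a-3p and miR-125b* shared 17 of 22 bases without a gap, and 5 of the 7 bases of the seed. Both arms of miR-125a lie in 1 hairpin at chr1:67350675-67350759 on the plus strand of GRCr8, printed here with the 5′ arm and then the 3′ arm in capitals.
Mir125a: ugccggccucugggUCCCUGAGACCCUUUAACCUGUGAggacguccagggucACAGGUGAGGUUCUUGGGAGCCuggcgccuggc

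MiR-125a-3p was high in the IR retinas at 0 h and fell towards the sham control level by 2 h. On the IR arrays at 0 h its signal was 5.70 at the lowest, 6.00 at the median and 6.22 at the highest. On the IR arrays at 2 h it was 3.50, 4.32 and 5.09, respectively. On the sham control arrays it was 3.23, 3.70 and 4.38 at 0 h, and 3.23, 3.94 and 4.23 at 2 h. All 6 IR arrays at 0 h were therefore above each of the other 18 arrays, while the other 3 groups overlapped one another. It was detected on all 6 IR arrays at 0 h and on 4 of 6 arrays in each of the other groups. Thus the IR effect was 2.17 (4.50-fold) at 0 h, with a limma adjusted p of 9.43e-08, and 0.50 (1.41-fold) at 2 h, with an adjusted p of 0.488. The difference between the effects was -1.68 with an SE of 0.41, a 95% interval from -2.49 to -0.86 and an adjusted p of 0.0208. Within the IR group it fell by 1.66 from 0 h to 2 h (limma adjusted p of 6.49e-05), the 1 miR called there of 159 tested (0.629%). In the sham control group the same difference was 0.02. The filter kept this miR through the IR arrays at 0 h and through 1 group outside the 4 compared here. All of its signals lay below 6.50, the lowest detected signal of the array where that was highest.

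The call on the change of the IR effect was kept in 15 of 23 alternatives of processing and model and lost in 8. Many of the 23 left the estimate at -1.68, and without a fold threshold the call could not be lost. They are therefore not 23 independent checks. With the slide as a block the change was -1.73 (limma adjusted p of 0.00171), with the slide as a random block -1.71 (0.00222) and with the mean of the probe signals -1.75 (0.00406). The exact permutation test of time labels within each treatment gave an unadjusted p of 0.00343, or 0.273 after adjustment over 159 miRs. When 1 array was left out at a time, the difference lay between -1.83 and -1.51. The call was lost without IR 2 h replicate 3 (adjusted p of 0.0601) or 5 (0.0792), sham control 0 h replicate 5 (0.0669), or sham control 2 h replicate 1 (0.0551) or 2 (0.0534). It was also lost with normexp background correction, with quantile normalization, without normalization and with other floors, and kept in the authors' normalized values (-1.39, adjusted p of 0.048).

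The other arm of the hairpin did not follow miR-125a-3p. The signal of miR-125a-5p, a close relative of the founding worm miR lin-4, had group means of 7.54 and 7.57 on the IR arrays and 7.52 and 7.70 on the sham control arrays, at 0 h and 2 h in turn. Its change of the IR effect was -0.15, with a 95% interval from -0.45 to 0.14. The 3p minus 5p difference, taken array by array, ranged from -1.66 to -1.40 in IR at 0 h and from -4.26 to -2.41 in IR at 2 h. In the sham control group it ranged from -4.16 to -3.23 at 0 h and from -4.43 to -3.30 at 2 h. The arrays of IR at 0 h were thus apart from all others in this difference. Since the group means of miR-125a-5p differed little, this mostly restates the separation of the 3p signal and is no second result. The hairpins of miR-99b and let-7e lie in the same cluster on chromosome 1, and the changes of the IR effect were 0.24 for miR-99b, 0.32 for miR-99b* and -0.02 for let-7e. In addition, miR-125b* had group means of 5.52 in IR at 0 h, 4.67 in IR at 2 h, 4.18 in sham control at 0 h and 4.31 in sham control at 2 h. Its IR effect was 1.34 at 0 h (adjusted p of 0.00325, limma) and 0.36 at 2 h, and the change of -0.99 did not pass (adjusted p of 0.530). Its IR arrays at 0 h (5.17 to 5.71) did not overlap the sham control arrays at 0 h (3.37 to 4.77), whereas those at 2 h (4.18 to 5.44 and 3.48 to 4.74) did.

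**Figure D1:**
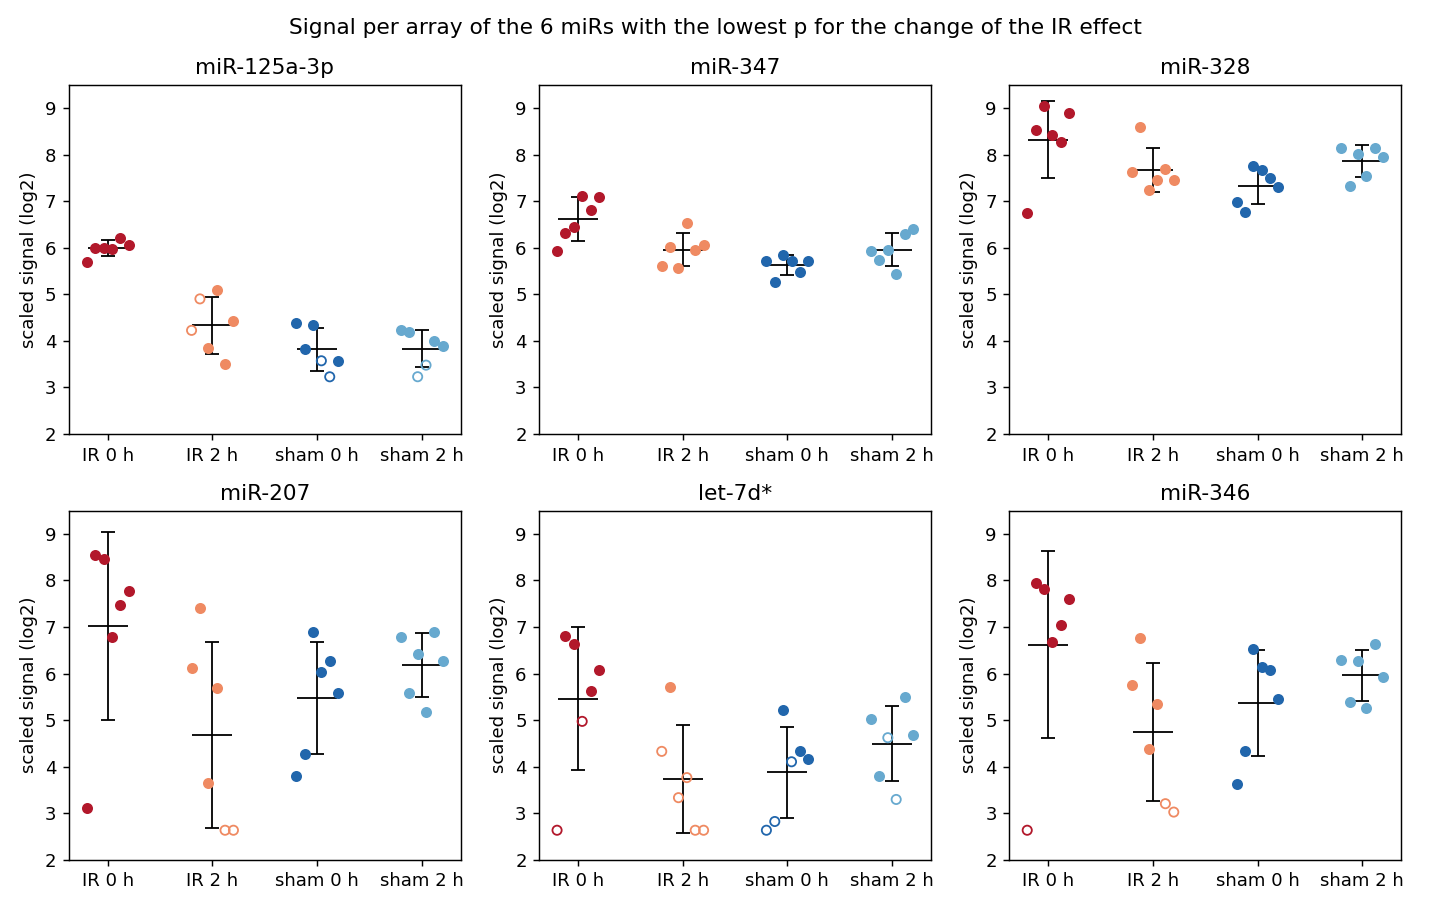
Scaled signal on the log2 scale (y axis) in each of the 24 arrays for the 6 miRs with the lowest p, by group (x axis, 6 arrays each). Filled points were detected, open points were not, and bars show the mean and SD. MiR-125a-3p lies between 5.70 and 6.22 in IR at 0 h, above the 5.09 of the highest other array, whereas the groups of the other 5 miRs overlap in part.

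MiR-347 had the second lowest p and was detected on all 24 arrays. Its signal in IR at 0 h was 5.92 at the lowest, 6.63 at the median and 7.11 at the highest. In IR at 2 h these values were 5.57, 5.98 and 6.53. In sham control they were 5.26, 5.71 and 5.85 at 0 h, and 5.44, 5.94 and 6.40 at 2 h. At 0 h each IR array was therefore above each sham control array, and at 2 h the groups overlapped. The IR effect was 1.00 at 0 h, just under the 2-fold threshold (limma adjusted p of 0.000234), while at 2 h both groups had a mean of 5.96. The change of -0.996 (95% interval from -1.56 to -0.43) did not pass, with an adjusted p of 0.0717 in limma. With the slide as a block it was called (-1.01, adjusted p of 0.00171), as it was with the slide in a fit of only the 24 arrays. The groups did not overlap for 4.4% of the 159 miRs at 0 h and for 3.14% at 2 h.

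MiR-207, miR-346 and let-7d* had larger estimates than miR-125a-3p and a wider spread. MiR-207 ranged from 3.11 to 8.55 in IR at 0 h and from 2.63 (the floor) to 7.41 in IR at 2 h. In sham control it ranged from 3.81 to 6.88 at 0 h and from 5.17 to 6.89 at 2 h. All 4 groups overlapped, and its change of the IR effect was -3.05 with a 95% interval from -5.09 to -1.005 (limma adjusted p of 0.139). MiR-346 had medians of 7.32 and 4.87 in IR at 0 h and 2 h and of 5.76 and 6.10 in sham control, and its lowest IR array at 0 h was at the floor. Let-7d*, the passenger strand of a let-7 hairpin, had medians of 5.85 and 3.55 in IR and of 4.13 and 4.65 in sham control, and was detected on 12 of 24 arrays. Their changes were -2.48 for miR-346 and -2.33 for let-7d*, with adjusted p of 0.175 and 0.139 in limma. MiR-328, detected on all 24 arrays, had medians of 8.48 and 7.55 in IR and of 7.40 and 7.99 in sham control, and a change of -1.18 (adjusted p of 0.139). MiR-378*, whose hairpin lies in an intron of Ppargc1b, had medians of 5.53 and 3.97 in IR and of 3.98 and 4.20 in sham control, and a change of -1.21 (adjusted p of 0.175). None of these 5 passed. For each of them the IR effect at 0 h was positive and at 2 h negative, for example 1.55 and -1.50 for miR-207 and 1.58 and -0.75 for let-7d*.

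Of the remaining 3 miRs with the lowest p, miR-138 (0.53) and miR-497 (0.27) had a positive change and miR-192 a negative one (-0.64), each with an adjusted p of 0.530 in limma. MiR-138, a miR of neuronal dendrites, had means of 3.67 and 4.27 in IR at 0 h and 2 h and of 4.34 and 4.42 in sham control. It was detected on 1 of 6 IR arrays at 0 h and on 4 or 5 of 6 arrays elsewhere. MiR-497, a member of the miR-15/16 seed family, moved little in absolute terms, with means of 5.40 and 5.47 in IR and of 5.34 and 5.14 in sham control, and its groups did not overlap at 2 h. MiR-192 had means of 5.66 and 5.35 in IR and of 5.46 and 5.79 in sham control, and all 4 groups overlapped. In total, 13 of 159 miRs (8.18%) had an unadjusted p under 0.05, 2 with a positive (1.26%) and 11 with a negative change (6.92%). Of the 8 miRs (5.03%) with an estimate of at least 2-fold, all were negative, and 7 were not detected on all 24 arrays.

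**Figure D2:**
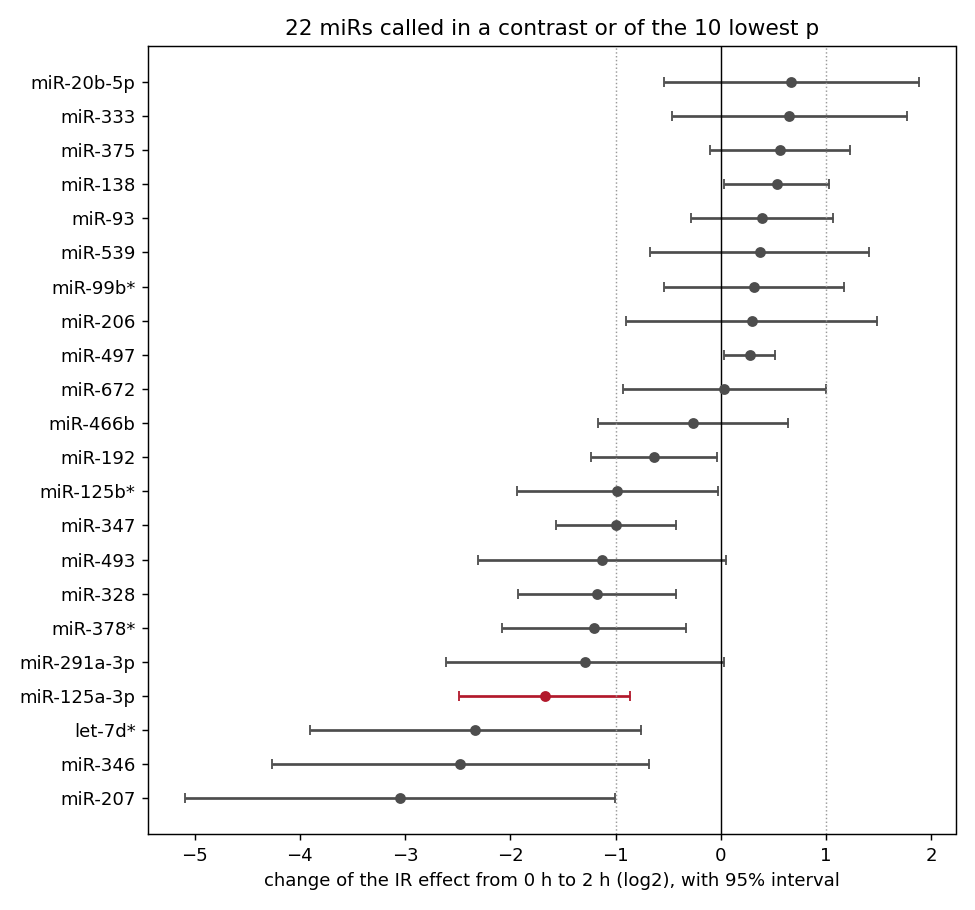
Change of the IR effect from 0 h to 2 h (x axis, log2) with its 95% interval for the 22 miRs that were called in a contrast or had 1 of the 10 lowest p (y axis, ordered by the estimate). The dotted lines mark 2-fold, and miR-125a-3p (-1.68) is the 1 miR called, in red, while the intervals of miR-207, miR-346 and let-7d* are the widest of the negative ones.

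Relative to the common level to which each array was scaled, most miRs allowed no large change. A shift shared by most miRs would be removed by that scaling, and without normalization the median change was 1.05. The median change over the 159 miRs was -0.01, with 74 positive and 85 negative estimates. The 95% interval lay within 2-fold in either direction for 118 of the 159 miRs, and within 1.5-fold for 84. For the 91 miRs detected on all 24 arrays, the interval lay within 2-fold for 85, and the median SE was 0.15, compared with 0.36 for the 68 other miRs. Among those 68 the interval lay within 2-fold for 33. Values set to the floor have no spread, so a narrow interval there can stand for non-detection and not for a measured level. MiR-204*, for example, was at the floor on all IR arrays, with an interval from -0.41 to 0.18.

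At 0 h, 11 of 159 miRs (6.92%) were called between IR and sham control, 10 higher (6.29%) and 1 lower, and at 2 h 8 miRs (5.03%) were called, all higher. With the slide as a block in the fit of all 60 arrays, which can separate slide from IR only through the arrays of later times, 7 and 4 miRs were called. The contrasts at 0 h and 2 h share no arrays, but they share slides. The IR arrays of both times lay on the same slides, and so did the sham control arrays of both times. A difference between slides would enter the effects at both times, so the calls and effects at 0 h and 2 h are not independent. The 4 miRs called at both times were miR-206, miR-466b, miR-539 and miR-672, which are 36.4% of the calls at 0 h and 50.0% of those at 2 h. Over the 159 miRs, the effects at 0 h and 2 h had a Pearson r of 0.556 and a Spearman rho of 0.524, as a description across miRs that share arrays and scaling.

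MiR-206, a miR of skeletal muscle, was higher in IR at both times. Its signal was 6.92, 7.48 and 8.35 (lowest, median and highest) in IR at 0 h and 6.17, 8.22 and 8.97 in IR at 2 h. In sham control it was 2.63, 5.75 and 7.26 at 0 h and 4.71, 5.57 and 5.98 at 2 h. The IR effect was 2.04 at 0 h and 2.33 at 2 h (limma adjusted p of 0.000310 and 8.00e-05), and its change was 0.29 with a 95% interval from -0.90 to 1.49. The other muscle miRs on the array were mostly not detected, miR-133a on 0 of 24 arrays, miR-133b on 3 and miR-1 on 7. The summed signal of the 4 muscle miRs ranged from 6.65 to 8.55 and from 5.63 to 9.09 in IR at 0 h and 2 h, and from 2.63 to 7.26 and from 3.63 to 6.22 in sham control. The part of other tissue in the values of miR-206 was not tested.

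MiR-539, from the imprinted cluster of chromosome 6, had signals of 6.18, 6.82 and 7.63 in IR at 0 h and of 5.75, 7.30 and 8.16 in IR at 2 h. In sham control they were 2.63, 4.65 and 6.08 at 0 h and 3.49, 4.45 and 5.11 at 2 h. IR and sham control did not overlap at either time, and the IR effect was 2.23 at 0 h and 2.60 at 2 h. MiR-672 had medians of 8.70 and 9.06 in IR and of 7.36 and 7.17 in sham control, with effects of 1.71 and 1.74. MiR-466b, one of many copies in a rodent-specific cluster, had medians of 8.97 and 9.14 in IR and of 7.89 and 7.77 in sham control, with effects of 1.52 and 1.26.

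The changes of these effects were 0.37 for miR-539 (95% interval from -0.67 to 1.41), 0.03 for miR-672 (-0.93 to 1.00) and -0.27 for miR-466b (-1.17 to 0.64). The intervals of miR-206, miR-539 and miR-466b thus reached past 2-fold, and that of miR-672 lay just within it. Sham control 0 h replicate 1 had the lowest signal of its group for all 4, miR-206 (2.63), miR-539 (2.63), miR-672 (4.77) and miR-466b (5.33). Without it the effects at 0 h were 1.47 for miR-206, 1.83 for miR-539, 1.24 for miR-672 and 1.07 for miR-466b, and all 4 were still called.

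**Figure D3:**
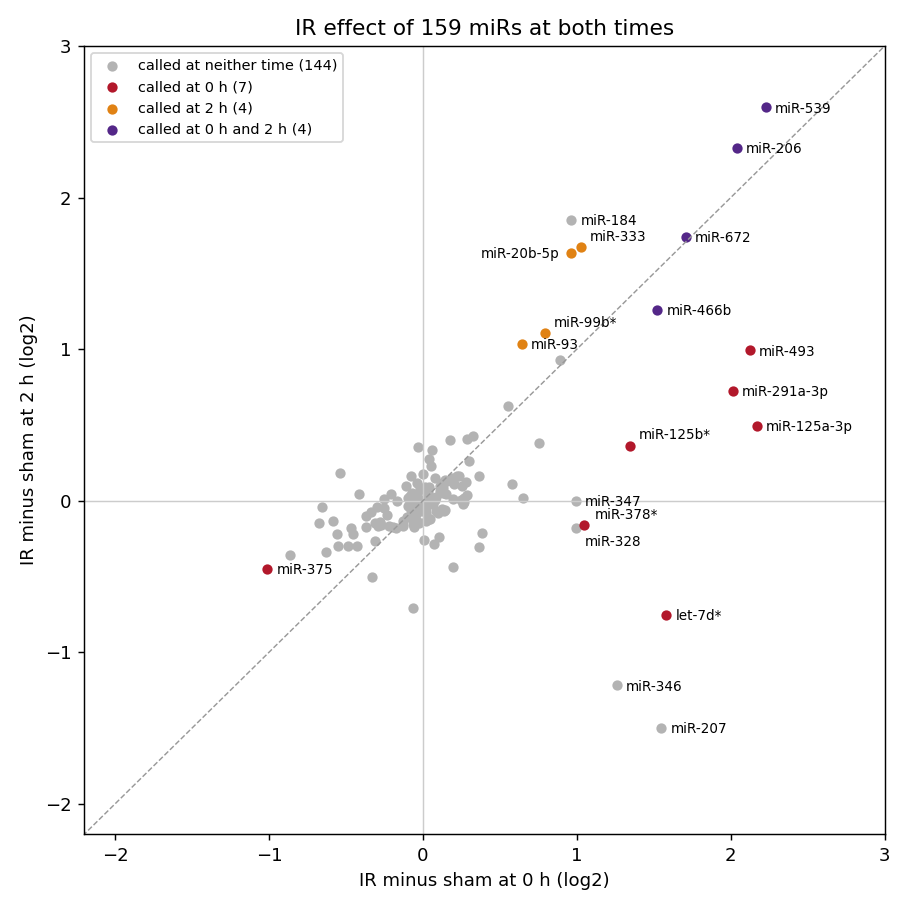
IR minus sham control difference (log2) at 0 h (x axis) and at 2 h (y axis) for the 159 miRs tested, with the line of equal effects dashed and colors for the time at which a miR was called. MiR-206, miR-466b, miR-539 and miR-672 lie near the line of equal effects, whereas miR-125a-3p lies at 2.17 and 0.50 and miR-207 at 1.55 and -1.50.

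Of the 11 miRs called at a single time, miR-125a-3p alone passed the test of the change. MiR-493, also of the imprinted cluster, had effects of 2.13 at 0 h and 0.99 at 2 h, and miR-291a-3p, from a cluster of embryonic stem cells, of 2.02 and 0.72. MiR-375, known from pancreatic islets and neuroendocrine cells, was the 1 miR called lower, with -1.01 at 0 h and -0.45 at 2 h, and 3 of its IR arrays at 0 h were at the floor. MiRs called only at 2 h were miR-333 (1.03 at 0 h and 1.68 at 2 h), miR-20b-5p (0.96 and 1.63), miR-93 (0.64 and 1.03) and miR-99b* (0.79 and 1.11). Some sham control arrays at 2 h were at the floor for miR-333, miR-20b-5p and miR-99b*, so these effects depend on the floor. The call at 2 h was lost in 11 of 21 alternatives for miR-99b* and in 8 of 20 for miR-333. It was lost in 6 of 21 for miR-20b-5p and likewise for miR-93. Both miR-20b-5p and miR-93 belong to the miR-17 seed family. Of the 15 miRs called at either time, 12 had a positive effect at both times. Over all 159 miRs tested, 111 (69.8%) had the same sign at both times. A call also fixes the sign at its own time, so nothing is concluded from the 12. None of the other 10 miRs called at a single time passed the test of the change. A call at one time and none at the other was thus not shown to be a difference between the times.

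In contrast to IR, the sham control retinas gave no call between 0 h and 2 h (0 of 159 miRs, 0%). Only miR-497 had an unadjusted p under 0.05 in limma, with a difference of -0.20 (adjusted p of 0.995). The exact permutation test gave 8 miRs with an unadjusted p under 0.05 and no call after adjustment. The smallest p it can give for 6 against 6 arrays is 0.00216. After adjustment over 159 miRs, a call needs several miRs at that value, so nothing is concluded from the lack of one. Within IR, miR-125a-3p was the 1 miR called, and 16 miRs (10.1%) had an unadjusted p under 0.05, among them miR-347 (-0.66), miR-207 (-2.34), miR-378* (-0.99) and miR-138 (0.61), each with an adjusted p of 0.0723.

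The marker miRs of the retina had narrow intervals. The 5 neuronal miRs on the array (miR-124, miR-9, miR-9*, miR-128 and miR-181a) were detected on all 24 arrays, with changes of the IR effect between -0.05 and 0.12, and their summed signal ranged from 13.62 to 14.05 over the 4 groups. The photoreceptor miRs miR-182, miR-183 and miR-96 had changes between -0.06 and -0.01, with summed signals from 13.58 to 14.09. All 8 intervals lay within 2-fold, and 0 of the 8 passed. These values are relative to the scaling, which was set on the 57 miRs detected on all 60 arrays. Among those 57 were miR-124, miR-9, miR-9*, miR-181a, miR-182 and miR-183. In the list of pigment epithelium and other eye tissue, miR-204 (-0.05) and miR-211 (-0.20) were likewise bounded. MiR-184, a miR abundant in cornea and lens, was not, since it ranged from 4.36 to 10.87 in IR at 2 h and from 5.05 to 7.01 in sham control at 2 h, and its change was 0.89 with an interval from -2.18 to 3.96.

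MiRs of blood and of inflammation were mostly not detected. The red blood cell miRs miR-451 and miR-144 were detected on 0 of 24 arrays. Of 5 leukocyte miRs, miR-142-3p, miR-142-5p and miR-146a were detected on 0 arrays, miR-223 on 6 and miR-150 on 10, and the summed signal ranged from 2.63 to 5.43. Of the vascular miRs, miR-126* and miR-145 were detected on 0 arrays, while miR-126 (0.02) and miR-143 (-0.18) were tested and did not pass. MiR-210, the miR best known for its response to low oxygen, was detected on all 24 arrays, and its change was -0.04, with IR effects of -0.01 at 0 h and -0.04 at 2 h.

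Among the activity-regulated miRs, miR-132 (-0.04), miR-212 (-0.25) and miR-138 (0.53) were tested, and none passed the adjusted test. The stress miRs miR-21 (-0.04) and miR-34a (-0.03) had intervals within 2-fold, while miR-34b and miR-34c were detected on 2 and 1 of 24 arrays. In the list of glial and precursor miRs, 6 of 7 were tested with a median change of -0.08, and the 1 that passed was miR-125a-3p, the same single call (0.629%) as over all miRs. The other 4 beside miR-125a-3p and miR-125b*, namely miR-125a-5p, miR-125b-5p, miR-99a and miR-100, lay between -0.15 and 0.11. Of 40 miRs of the imprinted cluster of chromosome 6, 18 were tested with a median of 0.11 (12 positive and 6 negative), and 0 passed. Over all 159 miRs the median was -0.01.

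Among the star strands, the changes ranged from -2.33 (let-7d*) to 0.32 (miR-99b*). Of 58 star strands on the array, 18 were tested, with a median change of -0.05, and 0 passed, and the 3 with an unadjusted p under 0.05 were let-7d*, miR-378* and miR-125b*, beside 8.18% of all miRs tested. For 19 hairpins both arms were tested, and in 13 of these both arms had the same sign. The guide strands of the 4 hairpins with the most negative passenger strands had changes of -0.06 (let-7d), -0.15 (miR-125a-5p), 0.11 (miR-378) and 0.00 (miR-125b-5p), each with an interval within 2-fold.

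The mean brightness of the arrays also varied between the groups, with a change of the opposite sign to the larger estimates. No contrast of brightness passed after adjustment. Brightness is the log2 of the 75th percentile by which an array was scaled. It was 9.34 ± 0.89 (SD, n = 6) in IR at 0 h, 9.84 ± 0.58 in IR at 2 h, 10.40 ± 0.49 in sham control at 0 h and 9.80 ± 0.41 in sham control at 2 h. The difference of differences was 1.10 (exact permutation p of 0.0391, adjusted p of 0.166 over 10 tests). At 0 h the IR arrays were the dimmer ones on average, with IR minus sham control at -1.06 (exact permutation p of 0.0303, adjusted p of 0.166). At 2 h that difference was 0.04. Within the 3 scans this difference was 0.27, 1.61 and 2.12. The number of detected miRs was 143 at the median in IR at 0 h, 159.5 in IR at 2 h, 141 in sham control at 0 h and 137.5 in sham control at 2 h (difference of differences of 13.5, exact permutation p of 0.632).

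The scaled signal of some miRs ran against brightness. In the 36 arrays of the 6 groups not compared here, the slope of signal on brightness was -1.06 for miR-207, -0.77 for let-7d*, -0.64 for miR-378*, -0.58 for miR-328 and -0.34 for miR-347. These, with miR-346 next to miR-207, were all among the 10 lowest slopes of 159. So were miR-291a-3p (-0.73) and miR-493 (-0.58), both called at 0 h. Not every miR called at 0 h had a negative slope, and that of miR-125b* was 0.38. The slope was -0.12 for miR-125a-3p, which ranked 26 from the lowest of 159, and 0.03 at the median of all miRs. Across the 159 miRs, this slope and the change of the IR effect had an r of 0.696 and a rho of 0.495, as a description. Its r with the IR effect was -0.565 at 0 h and 0.0631 at 2 h. With brightness as a covariate in limma, no change of the IR effect was called, and 6 of 159 miRs had an unadjusted p under 0.05. The list of 6 miRs linked to brightness was taken from earlier results of these data. Of these, 5 had an unadjusted p under 0.05, all negative, beside 8.18% of all 159 miRs. Because of how the list was chosen, its share is no independent result and nothing is concluded from it. None of the 6 passed the adjusted test. For miR-125a-3p, the brightest IR array at 0 h, with a brightness of 10.88, had a signal of 5.70. That signal was the lowest of the 6 IR arrays at 0 h, and above the highest signal of 5.09 on the 18 other arrays. The change of miR-125a-3p in the limma fit with brightness was -1.57, with an adjusted p of 0.0951, and the call was lost.

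**Figure D4:**
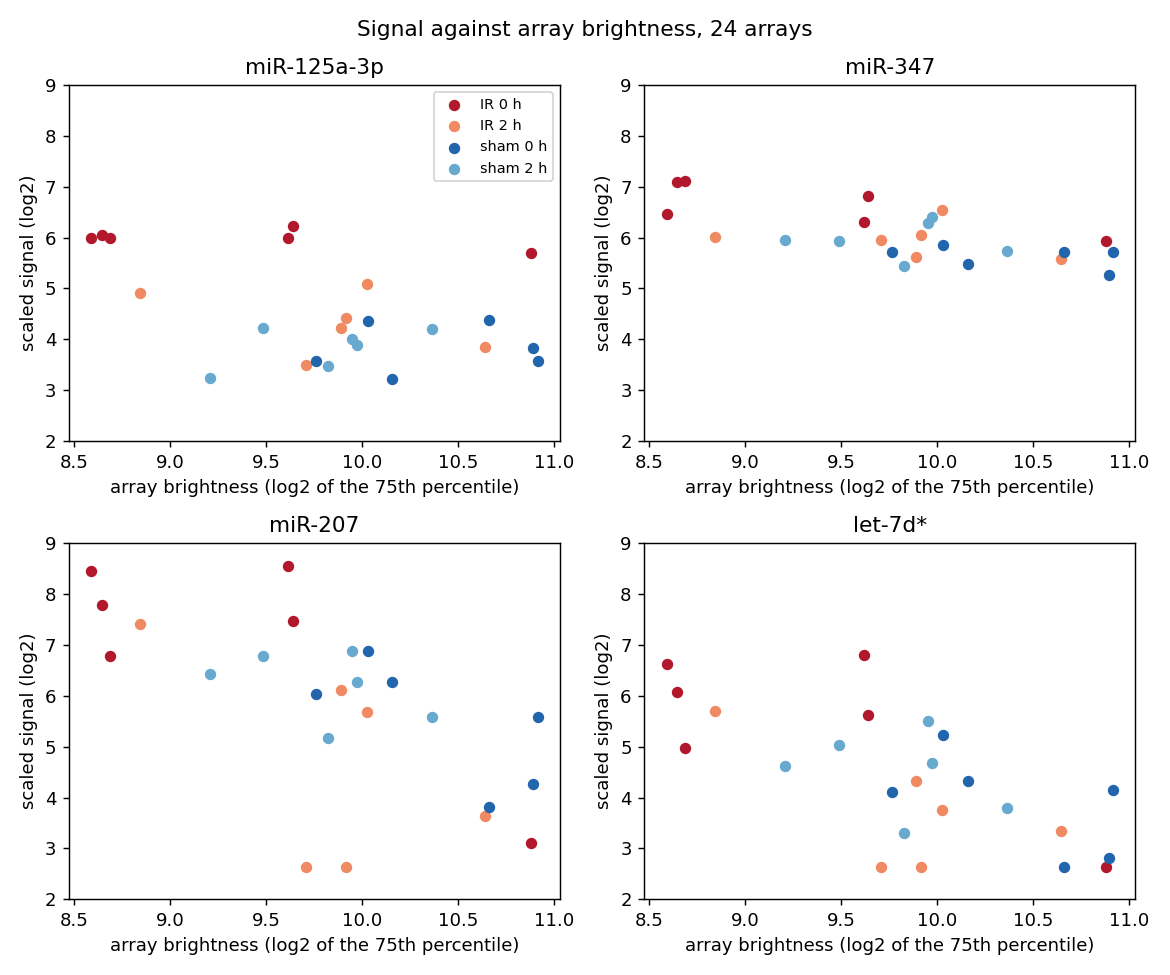
Scaled signal (y axis, log2) against array brightness (x axis, log2 of the 75th percentile) on the 24 arrays for 4 miRs, colored by group. The signals of miR-207 and let-7d* are lower on the brighter arrays. MiR-125a-3p on the IR arrays at 0 h lies between 5.70 and 6.22 from a brightness of 8.59 to one of 10.88, with the 5.70 on the brightest of them.

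This array, IR 0 h replicate 1, also changed the counts. Without it, 7 miRs were called for the change of the IR effect, namely miR-125a-3p, miR-347, miR-328, miR-207, let-7d*, miR-346 and miR-378*. Without IR 2 h replicate 2, which had the lowest brightness of its group (8.84), 5 were called. Without IR 2 h replicate 4 or sham control 2 h replicate 4, 2 were called, miR-125a-3p and miR-347. A count of 0 came without each of the 5 arrays named above for miR-125a-3p.

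Within scans, the change of the IR effect of miR-125a-3p was -1.36, -1.58 and -2.47, and that of miR-347 lay between -1.72 and -0.64. For miR-207 it was -1.14, -2.11 and -6.14, and for let-7d* -1.20, -1.49 and -4.38. The third scan held 1 IR and 1 sham control array at 0 h. The order of the scans was the same for brightness. All 4 miRs called at both times had signs that varied between scans, with ranges from -0.87 to 1.91 for miR-206, from -0.82 to 1.72 for miR-539, from -0.47 to 1.09 for miR-672 and from -0.61 to 0.54 for miR-466b. With the slide as a block in the fit of all 60 arrays, 2 miRs were called for the change, miR-125a-3p and miR-347.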

How the data were processed

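Retinal RNA of 60 rats was hybridized to 1-color Agilent miRNA arrays. The deposited scanner files (Feature Extraction 9.5) gave the total gene signal, a linear intensity that the software sums over the probes of a miR after background subtraction. The authors' normalized table, also deposited, holds log2 values. Of these, 12600 of 12600 compared values were equal, within 0.001, to the log2 total gene signal floored at 1 unit minus a constant per array. Its column medians were -0.856 to -0.409, and the methods name a scaling of each array to its 75% quantile; whether that step set the constants was not tested.

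Here, the 75th percentile of the 57 miRs that every one of the 60 arrays detected was set equal between arrays, and signals were floored at 6.20 signal units (2.63 on the log2 scale, the median over arrays of the lowest detected signal) and log2-transformed. A summed signal of a list was the log2 of the sum of its scaled signals. Of 350 miRs, the 159 that at least 1 of 10 groups showed on each of its 6 arrays were fitted in limma 3.58.1 (R 4.3.3), in 1 model of 60 arrays and 10 groups. Adjusted p-values are Benjamini-Hochberg values over the 159 miRs of a contrast, and a call needed a difference of at least 2-fold and an adjusted p of at most 0.05. Exact permutation tests were two-sided, and the smallest p they could give was 2.34e-06 for the change of the IR effect and 0.00216 for 6 against 6 arrays. Genes were named by rule, the 10 miRs with the lowest p for the change of the IR effect and all miRs called between IR and sham control at 0 h or 2 h (22 miRs), plus the miRs of the lists. The fit was tested on simulated data. Figures were drawn with matplotlib 3.10.9.

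The number of detected miRs was 97 to 224 per array, and the number of arrays limits the precision. No pair of arrays was identical, the lowest SD of log2 differences between 2 arrays being 0.178 compared with a median of 0.481 within groups. The alternatives tried were other signal summaries, background corrections, scalings, floors, filters, blocks, covariates and tests, and leaving out each array. Mature sequences were matched to RefSeq for 176 of 350 miRs, 68 by name, 97 by the arm and 11 where a hairpin had 1 arm. The contrast, the members and the lists were chosen with earlier results of these data known, and the list linked to brightness was taken from such results.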

Additional observations from a re-analysis of the deposited data

Results flagged for a closer look

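The change of the IR effect on miR-125a-3p between 0 h and 2 h (-1.68 on the log2 scale, limma adjusted p of 0.0208) was noted because the effects at the 2 times differed by a test of the difference itself.

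For the 22 miRs named, the array farthest from the rest of its group was looked for with Dixon's ratio of gap to range, in each of the 4 groups, and likewise for brightness and the number of detected miRs, which gives 96 groups of values. In 14 of these (14.58%) the ratio was above its 95% critical value, which about 1 in 20 groups of normal values would pass. Groups with arrays at the floor are not normal, and the 96 groups share arrays. The share is therefore a description and is not tested against 1 in 20. IR 0 h replicate 1, the brightest IR array, accounted for 4 of them and was low for miR-207 (3.11 against 6.78 for the next array, ratio of 0.675), miR-346 (2.63 against 6.68, 0.764), miR-328 (6.75 against 8.28, 0.667) and miR-493 (3.35 against 5.64, 0.634). IR 0 h replicate 2 was high for miR-20b-5p (6.10 against 4.60, ratio of 0.675) and miR-93 (6.23 against 5.24, 0.723). IR 0 h replicate 6 was low for miR-192 (5.15 against 5.64, ratio of 0.665).

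IR 2 h replicate 2, the dimmest array of its group, was high for miR-328 (8.59 against 7.68, ratio of 0.677) and miR-378* (4.80 against 3.98, 0.757). Sham control 0 h replicate 1 was low for miR-206 (2.63 against 5.55, ratio of 0.631) and miR-466b (5.33 against 7.63, 0.678). The other 3 were miR-99b* in sham control at 0 h (replicate 2, 3.07 against 2.76, ratio of 0.706) and at 2 h (replicate 5, 3.04 with the other 5 arrays at the floor, 1.0), and miR-125b* in sham control at 2 h (replicate 4, 3.48 against 4.32, 0.667).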

How the results depend on the processing

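Counts of called miRs are given in the order change of the IR effect, IR against sham control at 0 h, at 2 h, and IR at 2 h against 0 h, and were 1, 11, 8 and 1 in limma. Sham control at 2 h against 0 h gave 0 calls in limma in all 25 alternatives and without any single array (0 to 0), with 0 to 13 miRs at an unadjusted p under 0.05. Normexp background correction gave 0, 41, 2 and 0. The 75th percentile over all miRs gave 1, 11, 7 and 4, quantile normalization 0, 12, 7 and 3 (8 higher and 4 lower at 0 h), and no normalization 0, 79, 4 and 0 (4 higher and 75 lower at 0 h). The median change over all miRs was -0.64 with normexp, 0.27 with the 75th percentile over all miRs, 0.25 in the authors' table and 1.05 without normalization. A floor of 1 unit gave 0, 13, 6 and 1 (9 higher and 4 lower at 0 h), one of 0.01 unit 0, 8, 6 and 0, and the highest detection limit 0, 3, 3 and 0. Only miRs detected on all 60 arrays (57) gave 0, 2, 2 and 0, on all 24 (91) 0, 2, 2 and 0, in 1 of the 4 groups (117) 1, 6, 4 and 1, on at least 1 array (242) 1, 18, 13 and 1, and all 350 miRs 1, 16, 13 and 1. A fit of only the 24 arrays gave 1, 10, 5 and 1. The slide as a block gave 2, 7, 4 and 1, as a random block 1, 12, 8 and 2, and brightness as a covariate 0, 10, 8 and 1. The exact permutation test gave 0, 3, 0 and 0. For its comparisons of 6 against 6 arrays, several miRs must reach the smallest possible p before any can be called. No fold threshold gave 1, 20, 12 and 1, and the authors' table (211 miRs) 1, 25, 13 and 4 (14 higher and 11 lower at 0 h). Where the count for the change of the IR effect was 0, between 2 and 101 miRs had an unadjusted p under 0.05. The causes were not tested, but stricter filters tested fewer miRs. MiR-125a-3p, detected on 18 of the 24 arrays, was not among the miRs detected on all 60 or all 24 arrays, so it could not be called there. With the highest detection limit as the floor all its signals were equal.

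Of alternatives chosen after seeing the data, the slide as a block in only the 24 arrays gave 2 calls for the change of the IR effect and 1 for IR at 2 h against 0 h, and IR against sham control could not be fitted. The slide with brightness gave 1, 5, 5 and 1. The replicate block gave 1, 10, 8 and 1 and changed no call on the change of the IR effect. The replicate numbers pair no rats, and same-numbered arrays deviated together with an r of -0.399 to 0.329 in IR and -0.147 to 0.759 in sham control, with 1 of 6 arrays best correlated with its own number in each. Between IR and sham control the r was -0.184 to 0.601 at 0 h (4 of 6 over 0.1, 3 of 6 best with their own number) and -0.243 to 0.342 at 2 h (2 of 6 and 2 of 6).

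For miR-125a-3p the change kept its direction in 22 of 23 alternatives. The direction could not turn where the estimate stayed at -1.68. This held for the other filters, the floors of 1 and 0.01 unit and the fit of only the 24 arrays. It also held for the replicate and scan blocks, the exact permutation test, the trend and robust prior and no fold threshold. The call was lost in 8, with normexp (-1.23, limma adjusted p of 0.212), quantile normalization (-1.42, 0.0516), no normalization (-0.61, 0.227), floors of 1 unit (0.2) and 0.01 unit (0.994), the highest detection limit (0), brightness (0.0951) and the exact permutation test (0.273). Reversed values were miR-497 (-0.71), miR-138 (-0.84) and, at 0 h, miR-375 (0.89) with normexp, miR-347 (0.10), miR-192 (0.46) and, at 0 h, miR-378* (-0.01) without normalization, and let-7d* at 0 h (-0.05) with slide and brightness. Without 1 array the counts ranged from 0 to 7, 9 to 16, 6 to 9 and 1 to 7, and the difference in brightness from 0.93 to 1.40. The counts of 7 for the change of the IR effect, 16 at 0 h and 7 in IR came without IR 0 h replicate 1.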
